A study of Mus musculus with 4 samples.

Results

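The aminoacyl-tRNA synthetases were measured in mouse liver before and after partial hepatectomy, with and without knockdown of Mcu, the gene of the mitochondrial calcium uniporter pore. They were taken as every gene whose single symbol in the platform annotation has the form of a synthetase symbol (an amino acid letter followed by ars and an optional 1, 2, a or b, with Eprs and Tarsl2). This gave 35 genes of 19505 measured, 1 probe set each, of which 19 serve the cytosol and 16 the mitochondria. Symbols ending in 2 mark the mitochondrial forms, except that Tarsl2 encodes a cytosolic threonyl-tRNA synthetase-like protein and was placed with the cytosolic forms. Gars and Kars also supply the mitochondria from the same gene. Synthetase genes with no named probe set were not analysed here.

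There were 4 groups with 1 array each: Mcu knockdown liver at 30 h (KD 30 h), Mcu knockdown liver at 0 h (KD 0 h), control liver at 30 h (WT 30 h) and control liver at 0 h (WT 0 h). All were livers of male C57BL6J mice, injected in the tail vein at an age of 10 to 12 weeks with an adeno-associated virus of serotype 8. Knockdown animals carried loxP-flanked Mcu by the protocol text and received AAV8-TBG-Cre, in which the TBG promoter directs Cre recombinase to hepatocytes. The genotype label of both knockdown arrays names a different floxed gene, so the label and the protocol disagree on what was deleted. Control littermates received AAV8-TBG-Null, and their genotype label reads Wild type. Surgery 5 weeks later removed 70% of the liver, and the remnant was taken 30 h after it. The series text gives pools of 4 animals per genotype, so each array was read as 1 pooled sample.

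Mcu was lower on both knockdown arrays. It had a log2 level of 2.63 in KD liver at 30 h and 2.83 at 0 h, against 4.30 in WT liver at 30 h and 4.77 at 0 h. The other cells of the liver keep Mcu under this promoter, and the whole tissue was assayed. The 6 of 7 measured hepatocyte markers lay between 10.12 (Cps1) and 12.69 (Alb) on the 4 arrays. With 1 array per group no value carries an error, and no difference was tested. A difference below is one between arrays, in log2 units, where 0.585 is 1.5-fold and 1 is 2-fold. In bulk tissue, fewer cells of a type and less RNA per cell cannot be told apart. There was no sham operation, so loss of liver, surgery and time of sampling cannot be told apart in a difference between 30 h and 0 h.

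Aminoacyl-tRNA synthetases join each amino acid to its transfer RNA, the step that gives the ribosome the correct building block. Separate enzymes, encoded in the nucleus, serve the cytosolic ribosomes and the ribosomes inside mitochondria, which make a few respiratory chain proteins. In the cytosol several synthetases sit in a multisynthetase complex held together by the scaffold proteins Aimp1, Aimp2 and Eef1e1. Many cytosolic synthetase genes are known targets of Atf4, the transcription factor of the amino acid response, which binds a composite site for C/EBP and ATF proteins. Growth of the liver after hepatectomy needs much new protein.

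That composite site is shown here because it is a sequence feature shared by several cytosolic members that the choice of members did not use. The promoter windows, of 250 bases before and 50 bases after the gene start, were matched for 26 of the 35 members and are from RefSeq, build GRCm38.p6. No window was matched for the cytosolic Cars, Hars, Lars, Nars, Rars, Vars and Wars or the mitochondrial Hars2 and Pars2. These unread members include Hars, Nars, Vars and Wars, whose responses of at least 1.5-fold are given below. The letters TGATGNAA, read on both strands, were found in 4 of 12 cytosolic windows (33.3%), in 0 of 14 mitochondrial ones, and in 4.51% of 27025 genes with a window. The stricter TTGCATCA, whose reverse complement is one of the forms TGATGNAA allows, was found in 3 of the 12 cytosolic windows (25%) and in 1.03% of all genes. The 4 windows that hold TGATGNAA follow, 5′ to 3′ in the direction of transcription, with the matched bases in capitals.
Tars (chr15:11399609-11399908, - strand): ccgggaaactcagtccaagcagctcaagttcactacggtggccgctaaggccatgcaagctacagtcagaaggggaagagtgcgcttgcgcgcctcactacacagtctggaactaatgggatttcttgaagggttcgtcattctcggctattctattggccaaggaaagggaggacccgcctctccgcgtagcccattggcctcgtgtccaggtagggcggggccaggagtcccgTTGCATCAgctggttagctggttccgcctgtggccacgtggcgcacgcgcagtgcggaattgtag
Gars (chr6:55037751-55038050, + strand): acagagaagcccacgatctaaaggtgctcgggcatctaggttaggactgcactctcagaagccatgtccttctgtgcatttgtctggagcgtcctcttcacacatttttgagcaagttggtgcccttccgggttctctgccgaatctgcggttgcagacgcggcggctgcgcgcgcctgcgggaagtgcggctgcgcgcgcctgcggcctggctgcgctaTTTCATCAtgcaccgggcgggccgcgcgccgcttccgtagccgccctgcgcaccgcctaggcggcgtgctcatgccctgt
Iars (chr13:49681880-49682179, + strand): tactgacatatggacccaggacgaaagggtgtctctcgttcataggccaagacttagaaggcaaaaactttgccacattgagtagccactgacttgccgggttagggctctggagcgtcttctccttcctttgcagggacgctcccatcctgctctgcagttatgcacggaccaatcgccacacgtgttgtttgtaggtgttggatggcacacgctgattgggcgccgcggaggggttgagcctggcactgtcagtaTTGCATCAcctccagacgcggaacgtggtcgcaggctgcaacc
Yars (chr4:129189653-129189952, + strand): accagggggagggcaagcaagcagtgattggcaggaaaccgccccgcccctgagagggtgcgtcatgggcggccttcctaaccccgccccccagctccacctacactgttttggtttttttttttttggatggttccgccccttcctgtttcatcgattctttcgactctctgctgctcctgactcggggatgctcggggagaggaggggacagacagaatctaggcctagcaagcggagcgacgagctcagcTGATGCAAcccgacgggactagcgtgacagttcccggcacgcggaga
The match began 15 bases before the start in Tars, 30 bases before it in Gars, 7 bases after it in Iars and 3 bases after it in Yars. The E-box CACGTG, a palindrome bound by Myc among others, was found in Farsb, Iars and Tars and, of the mitochondrial forms, in Ears2, against 8.09% of all genes. A match is a description of these letters and not a measured binding site. The 4 genes did not share a response: 30 h minus 0 h was -0.90 in KD liver and -0.81 in WT liver for Tars, 0.09 and 0.68 for Gars in the same order, -0.03 and 0.17 for Iars, and 0.15 and 0.12 for Yars.

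In KD liver the cytosolic synthetases were split between higher and lower at 30 h, while in WT liver most were higher at 30 h than at 0 h. In KD liver 8 of 19 were higher (42.1%) and 11 lower (57.9%), with a median difference of -0.08. In WT liver 15 were higher, 3 lower and 1 equal, with a median of 0.17. Many differences were small, and the whole array has to be read beside them. Among the brighter genes, those with a mean level at or above the median gene's 3.83, the medians were -0.04 in KD liver and 0.10 in WT liver. Of these brighter genes 46.2% were above 0 and 53.1% below 0 in KD liver, and 58.2% were above 0 and 40.8% below 0 in WT liver. All but 3 members (Farsb, Mars2 and Wars2) are among them, and over all 19505 genes the medians were 0.01 and -0.01.

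**Figure D1:**
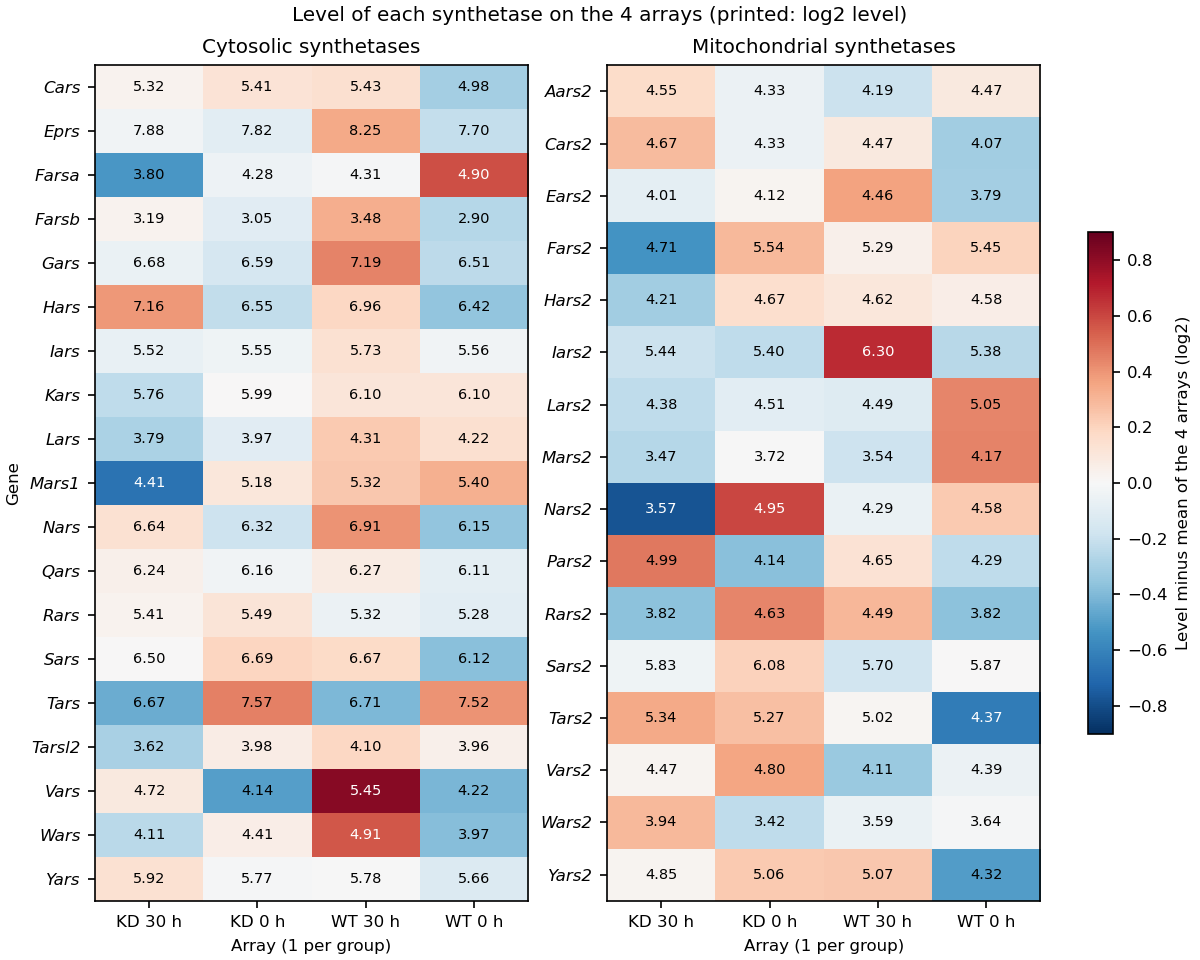
Log2 level of each cytosolic (left) and mitochondrial (right) synthetase on the KD 30 h, KD 0 h, WT 30 h and WT 0 h arrays, with the level printed in each cell and colour for its distance from the gene's own mean over the 4 arrays. Of the 19 cytosolic genes, 12 were highest on the WT 30 h array (with Kars, equal on both WT arrays, counted), which held for 3 of the 16 mitochondrial genes, 35.3% of the brighter genes and 26.2% of all genes.

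Vars, the valyl-tRNA synthetase, showed the largest positive response of any member. Its level was 4.72 in KD liver at 30 h and 4.14 at 0 h, against 5.45 in WT liver at 30 h and 4.22 at 0 h. The difference between times was 0.58 in KD liver and 1.23 (2.35-fold) in WT liver, which only 3.42% of the brighter genes exceeded in WT liver. It was at least 2-fold in WT liver, and 5.98% of the brighter genes were at least 2-fold higher there. The WT 30 h array stood above the other 3, and both arrays at 0 h were close together.

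Wars, the tryptophanyl-tRNA synthetase, which is known to be induced by interferon gamma in human cells, went in different directions in the genotypes. It read 4.11 in KD liver at 30 h and 4.41 at 0 h, against 4.91 in WT liver at 30 h and 3.97 at 0 h. The response was -0.30 in KD liver and 0.94 (1.92-fold) in WT liver. The WT 30 h array was the highest and the WT 0 h array the lowest, with both knockdown arrays between them.

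Nars, which charges asparagine, and Gars, which charges glycine in the cytosol and in mitochondria, also passed 1.5-fold in WT liver. Nars read 6.64 in KD liver at 30 h and 6.32 at 0 h, against 6.91 in WT liver at 30 h and 6.15 at 0 h, so that its response was 0.32 in KD liver and 0.76 in WT liver. Gars read 6.68 in KD liver at 30 h and 6.59 at 0 h, against 7.19 in WT liver at 30 h and 6.51 at 0 h, a response of 0.09 in KD liver and 0.68 in WT liver. In both genes WT 30 h was the highest array and WT 0 h the lowest. The WT responses of both were below 1.5-fold under other normalizations of the arrays, at 0.54 for Nars and 0.45 for Gars after quantile normalization. These 4 genes made 4 of 19 cytosolic members (21.1%) at least 1.5-fold higher in WT liver, beside 17.5% of the brighter genes and 12.5% of all genes.

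Hars, which charges histidine, was the single cytosolic member at least 1.5-fold higher in KD liver, where 9.12% of the brighter genes and 10.4% of all genes were. It read 7.16 in KD liver at 30 h and 6.55 at 0 h, against 6.96 in WT liver at 30 h and 6.42 at 0 h. Its response of 0.61 in KD liver and 0.54 in WT liver was close in the genotypes, and both arrays at 30 h stood above both at 0 h. With median centring over all genes the KD response was 0.58, just under 1.5-fold.

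Tars and Farsa were lower at 30 h in both genotypes. Tars, which charges threonine, read 6.67 in KD liver at 30 h and 7.57 at 0 h, against 6.71 in WT liver at 30 h and 7.52 at 0 h. The response was -0.90 (1.87-fold lower) in KD liver and -0.81 (1.75-fold lower) in WT liver, and 3.88% of the brighter genes in KD liver and 3.18% in WT liver lay below these values. The arrays at 30 h were nearly equal and so were those at 0 h. Farsa, the alpha subunit of the cytosolic phenylalanyl-tRNA synthetase, read 3.80 in KD liver at 30 h and 4.28 at 0 h, against 4.31 in WT liver at 30 h and 4.90 at 0 h. Its response was -0.48 in KD liver and -0.59 in WT liver, or -0.58 in WT liver with median centring over all genes. Farsb, the beta subunit of the same enzyme, had a response of 0.14 in KD liver and 0.58 in WT liver, and is one of the 3 dimmer probe sets.

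Mars1, which charges both the initiator and the elongator methionine transfer RNA, was lower at 30 h in KD liver. Its level was 4.41 in KD liver at 30 h and 5.18 at 0 h, against 5.32 in WT liver at 30 h and 5.40 at 0 h. The response was -0.77 (1.71-fold lower) in KD liver and -0.08 in WT liver, and the KD 30 h array stood apart below the other 3. With Tars, it made 2 of 19 cytosolic members at least 1.5-fold lower in KD liver (10.5%, beside 12% of the brighter genes and 9.69% of all genes). In WT liver these were Tars and Farsa (10.5%, beside 8.05% of the brighter genes and 11% of all genes).

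Sars, which charges serine, was lowest on the WT 0 h array, with the other 3 arrays close together. It read 6.50 in KD liver at 30 h and 6.69 at 0 h, against 6.67 in WT liver at 30 h and 6.12 at 0 h, with a response of -0.19 in KD liver and 0.55 in WT liver. Eprs, the fused glutamyl- and prolyl-tRNA synthetase, had 0.06 in KD liver and 0.55 in WT liver, and Cars, which charges cysteine, had -0.09 and 0.45 in that order. The other 7 cytosolic members (Iars, Kars, Lars, Qars, Rars, Tarsl2 and Yars) lay between -0.36 (Tarsl2) and 0.15 (Yars) in KD liver and between 0.00 (Kars) and 0.17 (Iars) in WT liver.

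**Figure D2:**
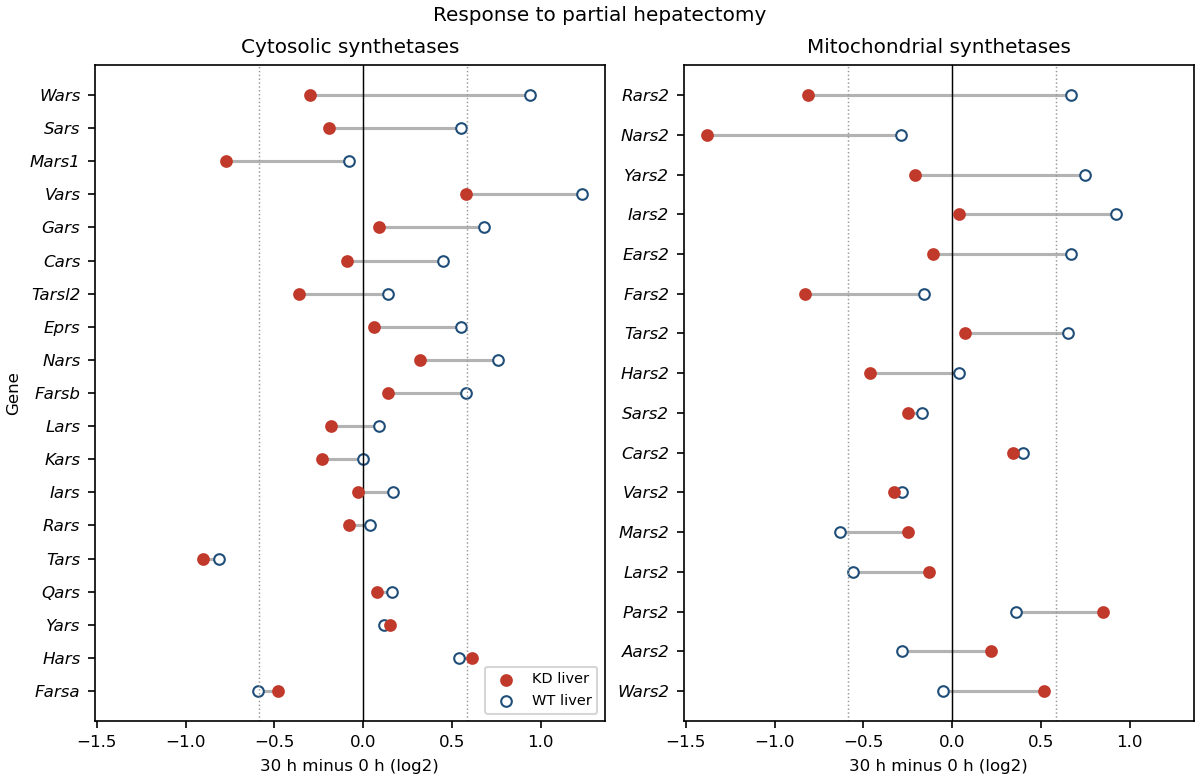
Response to partial hepatectomy (30 h minus 0 h, log2) of each synthetase in KD liver (filled) and WT liver (open), with the gap between genotypes as a line, genes ordered by that gap and dotted lines at 1.5-fold. Of 19 cytosolic genes, 16 have the KD point left of the WT point, with Wars (-0.30 in KD liver, 0.94 in WT liver) at the top, and Tars lies at the left in both genotypes.

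Members of the multisynthetase complex had a lower median response in WT liver than the other cytosolic members. Of its 8 synthetases 7 were measured (Eprs, Iars, Kars, Lars, Mars1, Qars and Rars), and their median response was -0.08 in KD liver and 0.09 in WT liver, with 0 at least 1.5-fold higher in either. Of the brighter genes 9.12% were at least 1.5-fold higher in KD liver and 17.5% in WT liver, with medians of -0.04 and 0.10. The 12 cytosolic members outside the complex had a median of 0.00 in KD liver and 0.55 in WT liver. At 30 h in WT liver 10 of 12 were higher (83.3%), beside 5 of 7 in the complex (71.4%) and 58.2% of the brighter genes. The difference between these groups was not tested. Split by enzyme class, which reflects unrelated folds of the catalytic domain, the 18 class I members had a median of -0.10 in KD liver and 0.17 in WT liver, and the 16 class II members -0.21 and 0.09 in that order. The fused Eprs was counted in neither class. The 11 measured cytosolic synthetases often reported as induced with Atf4 had a median of -0.09 in KD liver and 0.45 in WT liver. The other 8 had 0.00 in KD liver and 0.15 in WT liver.

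The mitochondrial synthetases had no common response. In KD liver 6 of 16 were higher at 30 h and 10 lower (median -0.17), and in WT liver 8 were higher and 8 lower. Their WT median was -0.01 and turned positive, up to 0.20, under several other settings, so it has no direction. In WT liver 5 of the 16 (31.2%) were at least 1.5-fold higher, beside 17.5% of the brighter genes, and Mars2 was lower. In KD liver Pars2 was at least 1.5-fold higher and 3 of 16 (18.8%, beside 12%) were at least 1.5-fold lower.

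Iars2, which charges isoleucine in mitochondria, read 5.44 in KD liver at 30 h and 5.40 at 0 h, against 6.30 in WT liver at 30 h and 5.38 at 0 h. The response was 0.04 in KD liver and 0.92 (1.89-fold) in WT liver, and the WT 30 h array alone stood out. Yars2, for tyrosine, read 4.85 in KD liver at 30 h and 5.06 at 0 h, against 5.07 in WT liver at 30 h and 4.32 at 0 h. Here the WT 0 h array stood below the other 3, and the response was -0.21 in KD liver and 0.75 in WT liver.

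Rars2, for arginine, had the opposite response in the genotypes. It read 3.82 in KD liver at 30 h and 4.63 at 0 h, against 4.49 in WT liver at 30 h and 3.82 at 0 h, so the response was -0.81 (1.75-fold lower) in KD liver and 0.67 (1.59-fold higher) in WT liver. The KD 0 h and WT 30 h arrays were high and the other pair equal. Such a response of at least 1.5-fold each way was found in 1 of 35 members (2.86%) and in 1.21% of the brighter genes. Tars2, for threonine, read 5.34 in KD liver at 30 h and 5.27 at 0 h, against 5.02 in WT liver at 30 h and 4.37 at 0 h, with the WT 0 h array lowest. Its response was 0.07 in KD liver and 0.65 in WT liver. Ears2, for glutamate, had 4.01 in KD liver at 30 h and 4.12 at 0 h, against 4.46 in WT liver at 30 h and 3.79 at 0 h, a response of -0.11 in KD liver and 0.67 in WT liver. With the arrays centred on the brighter genes, the WT responses of Ears2 and Rars2 (0.55 each) and of Tars2 (0.53) were below 1.5-fold.

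Nars2, for asparagine, showed the largest negative response of any member. It read 3.57 in KD liver at 30 h and 4.95 at 0 h, against 4.29 in WT liver at 30 h and 4.58 at 0 h. The response was -1.38 (2.6-fold lower) in KD liver and -0.29 in WT liver, and 0.799% of the brighter genes lay below it in KD liver. Its knockdown arrays were the extremes, the highest at 0 h and the lowest at 30 h. At least 2-fold lower in KD liver were 2.74% of the brighter genes.

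Fars2, for phenylalanine, read 4.71 in KD liver at 30 h and 5.54 at 0 h, against 5.29 in WT liver at 30 h and 5.45 at 0 h, a response of -0.83 in KD liver and -0.16 in WT liver. The KD 30 h array alone was low. Pars2, for proline, went the other way: 4.99 in KD liver at 30 h and 4.14 at 0 h, against 4.65 in WT liver at 30 h and 4.29 at 0 h, a response of 0.85 in KD liver and 0.36 in WT liver. Mars2, for methionine, a dim probe set, read 3.47 in KD liver at 30 h and 3.72 at 0 h, against 3.54 in WT liver at 30 h and 4.17 at 0 h, with WT 0 h the high array. Its WT response was -0.63, and -0.56 with cyclic loess. The remaining mitochondrial forms (Aars2, Cars2, Hars2, Lars2, Sars2, Vars2 and Wars2) stayed within 1.5-fold, from -0.46 (Hars2) to 0.52 (Wars2) in KD liver and from -0.56 (Lars2) to 0.40 (Cars2) in WT liver.

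Subtracting the WT response from the KD response, 27 of 35 members were below 0, 16 of 19 cytosolic (84.2%) and 11 of 16 mitochondrial (68.8%). The brighter genes were also mostly below 0 (63.2% below and 36.1% above, median -0.18), against a median of -0.44 for cytosolic and -0.29 for mitochondrial members. At least 1.5-fold lower were 5 cytosolic members (26.3%), Wars (-1.24), Sars (-0.74), Mars1 (-0.69), Vars (-0.65) and Gars (-0.59), beside 22.5% of the brighter genes and 17% of all genes. The 6 mitochondrial ones (37.5%, beside 22.5%) were Rars2 (-1.48), Nars2 (-1.09), Yars2 (-0.96), Iars2 (-0.88), Ears2 (-0.78) and Fars2 (-0.67). No member was at least 1.5-fold higher, which 9.63% of the brighter genes and 16.9% of all genes were. Wars, Rars2 and Nars2 were at least 2-fold lower, as were 7.43% of the brighter genes. The highest were Wars2 (0.57), Aars2 (0.50) and Pars2 (0.49). Centring the arrays on the brighter genes raised every value by 0.18. The cytosolic median was then -0.26 and 1 cytosolic member, Wars, remained at least 1.5-fold lower. Fars2 (-0.49) was also under 1.5-fold there, and the other 5 mitochondrial calls held in all 4 other normalizations.

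**Figure D3:**
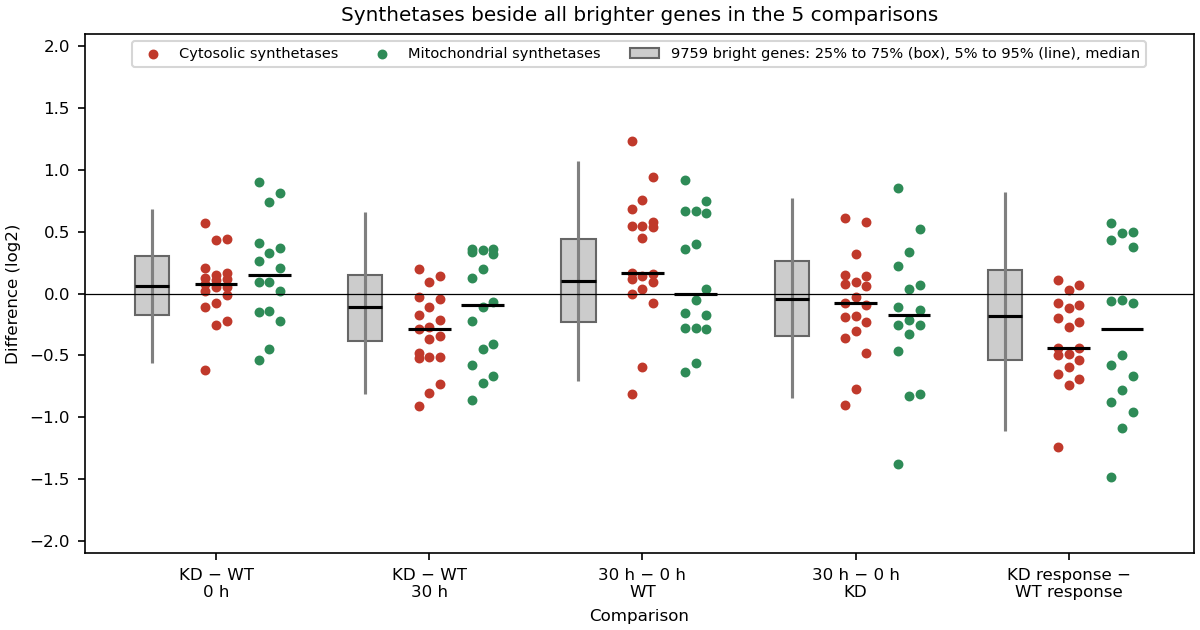
Log2 differences of the 19 cytosolic and 16 mitochondrial synthetases in the 5 comparisons, each point a gene and each bar a median, beside the brighter genes (box for the middle, line from the 5th to the 95th percentile). Most synthetases lie within the range of the brighter genes, whose own median was -0.18 in the difference of responses and -0.11 for KD minus WT at 30 h.

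At 30 h, most cytosolic synthetases had lower levels in KD than in WT liver, which was also the direction of the brighter genes. Of 19, 16 (84.2%) were lower and 3 higher (Hars, Yars and Rars), with a median of -0.29, while 61.2% of the brighter genes were lower and 37.8% higher, with a median of -0.11. At least 1.5-fold lower were Mars1 (-0.91, 1.88-fold), Wars (-0.80, 1.74-fold) and Vars (-0.73, 1.66-fold), or 15.8% of the cytosolic members beside 12.5% of the brighter genes and 9.19% of all genes. Next came Lars (-0.52), which charges leucine, Gars (-0.51), Farsa (-0.51) and Tarsl2 (-0.48). After quantile normalization the cytosolic median was -0.17 and after cyclic loess -0.15, still below 0.

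Of the mitochondrial forms 7 were higher and 9 lower at 30 h in KD than in WT liver. Their median of -0.09 was near that of the brighter genes, and turned to 0.04 when the arrays were centred on these. Iars2 (-0.86, 1.82-fold), Nars2 (-0.72) and Rars2 (-0.67) were at least 1.5-fold lower, 18.8% beside 12.5%, with Rars2 at -0.54 after that centring. Fars2 followed at -0.58. On the other side Aars2 and Vars2 (both 0.36), Wars2 (0.35), Pars2 (0.34) and Tars2 (0.32) were higher by less than 1.5-fold. No synthetase of either compartment was at least 1.5-fold higher, beside 6.31% of the brighter genes and 10.4% of all genes.

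At 0 h, before surgery, KD and WT livers were closer for the cytosolic forms and differed more for a few mitochondrial ones. Of the cytosolic members 13 were higher and 6 lower, with a median of 0.08 beside 0.06 for the brighter genes, of which 56.7% were higher and 42.2% lower. Sars (0.57), Wars (0.44) and Cars (0.43) were the highest, under 1.5-fold. Farsa (-0.62, 1.54-fold) was the one past it, 5.26% beside 4.49% of the brighter genes and 7.52% of all genes. Of the mitochondrial members 11 were higher and 5 lower, with a median of 0.15. Tars2 (0.90, 1.87-fold), Rars2 (0.81, 1.75-fold) and Yars2 (0.74, 1.67-fold) were at least 1.5-fold higher, or 18.8% beside 7.7% of the brighter genes and 7.74% of all genes. Of the brighter genes 1.9%, 2.83% and 3.72% lay above these values. The WT 0 h array was the lowest of the 4 for Tars2 and Yars2, and level with KD 30 h for Rars2. Lars2 (-0.54) and Mars2 (-0.45) were the lowest. These 4 calls held under each of the 4 other normalizations.

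**Figure D4:**
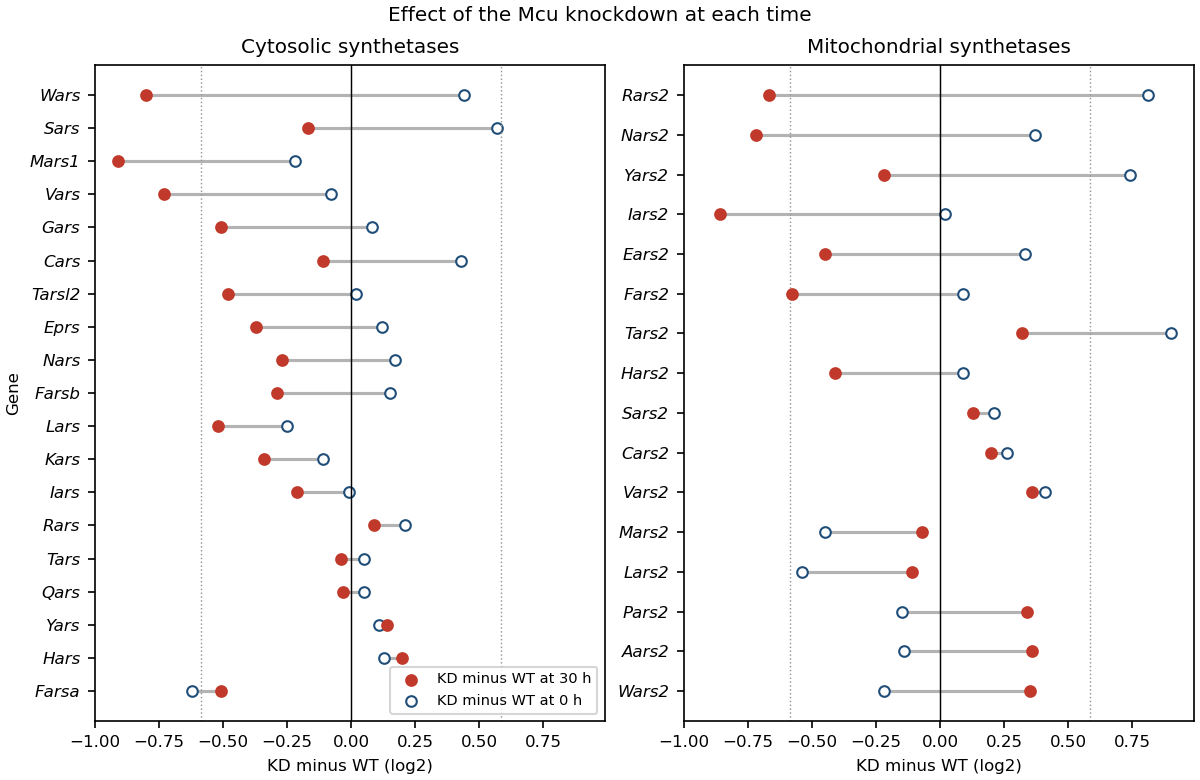
KD minus WT (log2) of each synthetase at 30 h (filled) and at 0 h (open), genes ordered by the gap between times, with dotted lines at 1.5-fold. At 30 h the cytosolic points lie from -0.91 (Mars1) to 0.20 (Hars), and at 0 h from -0.62 (Farsa) to 0.57 (Sars).

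Cytosolic and mitochondrial forms for the same amino acid often had different responses. Counting phenylalanine once per cytosolic subunit and Eprs against both Ears2 and Pars2, 16 pairs could be formed. The cytosolic form had the higher response in 9 of 16 pairs in KD liver and in 10 of 16 in WT liver. For valine, the WT response was 1.23 for Vars and -0.28 for Vars2, a gap of 1.51, and the KD response 0.58 and -0.33. Threonine was the reverse: Tars was lower and Tars2 higher in WT liver (gap -1.46). For asparagine the gap was 1.70 in KD liver, where Nars stood at 0.32 and Nars2 at -1.38, and 1.05 in WT liver. Tryptophan changed sides, since Wars minus Wars2 was -0.82 in KD liver and 0.99 in WT liver. Hars and Hars2 are direct neighbours on chromosome 18, the only such pair among the members. Their responses were 0.61 and -0.46 in KD liver, against 0.54 and 0.04 in WT liver.

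**Figure D5:**
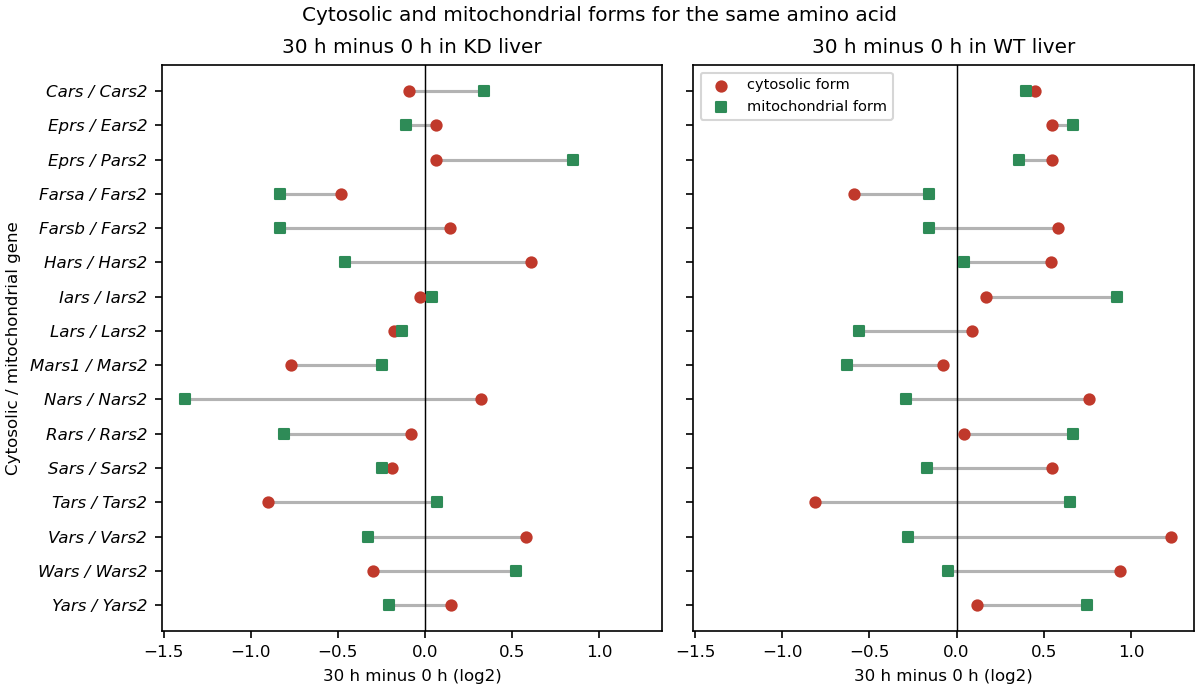
Response (30 h minus 0 h, log2) of the cytosolic (circle) and mitochondrial (square) synthetase of each amino acid in KD liver (left) and WT liver (right), joined by a line. The longest lines are Nars and Nars2 in KD liver (gap 1.70) and Vars and Vars2 (1.51) and Tars and Tars2 (-1.46) in WT liver.

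Proteins that work with the synthetases were read beside them. The scaffolds of the multisynthetase complex were all higher at 30 h in WT liver, as were 58.2% of the brighter genes, and Aimp1 was lower in KD liver. Aimp1 read 3.15 in KD liver at 30 h and 4.29 at 0 h, against 4.38 in WT liver at 30 h and 3.68 at 0 h. Its response was -1.14 in KD liver and 0.70 in WT liver, and each rests on a value under 3.83. Eef1e1 responded by 0.36 in KD liver and 1.03 in WT liver, and Aimp2 by 0.76 and 0.66 in that order. The 5 cytosolic elongation factor genes had a median response of 0.18 in KD liver and 0.71 in WT liver. Among them Eef1d stood at 0.18 in KD liver and 1.28 in WT liver, Eef1g at 0.51 and 0.83, and Eef1b2 at 0.24 and 0.71. Eef1a1 (-0.07 in KD liver, 0.15 in WT liver) and Eef2 (-0.18 and 0.09 in that order) differed less between times in WT liver.

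On the mitochondrial side, the 7 translation factors had a median response of -0.25 in KD liver and 0.22 in WT liver. All 7 were lower in KD than in WT liver at 30 h (median -0.55), from -0.03 for Tufm and Tsfm to -0.74 for the initiation factor Mtif3. Of the brighter genes 61.2% were lower there (median -0.11). At least 1.5-fold lower were 2 of the 7 factors (28.6%), beside 12.5% of the brighter genes and 9.19% of all genes. Mtrf1l, a release factor, responded by -0.60 in KD liver and 0.69 in WT liver. Mitochondria make glutaminyl-tRNA indirectly, through an amidotransferase, and its subunits responded by 0.71 (Qrsl1), -0.48 (Gatb) and -0.74 (Gatc) in KD liver, against 0.63, -0.44 and -0.04 in WT liver. Mtfmt, which formylates the mitochondrial initiator methionine, responded by -0.45 in KD liver and -0.59 in WT liver.

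Genes of the amino acid response were spread to both sides of 0. Atf4 read 7.39 in KD liver at 30 h and 7.48 at 0 h, against 7.40 in WT liver at 30 h and 7.23 at 0 h. Of 25 measured genes of this list, 13 were higher at 30 h in KD liver (52%, median 0.05) and 17 in WT liver (68%, median 0.22). Of the brighter genes 46.2% were higher in KD liver (median -0.04) and 58.2% in WT liver (median 0.10). The amino acid transporters Slc38a2 (1.17 in KD liver, 1.18 in WT liver) and Slc7a5 (1.21 and 1.35 in that order) had close responses in the genotypes. Atf3, a stress-induced transcription factor, stood at 1.37 in KD liver and 0.76 in WT liver. Shmt2, of mitochondrial serine and folate metabolism, differed (-0.25 in KD liver, 1.11 in WT liver), as did Xpot, which exports transfer RNA from the nucleus (-0.88 in KD liver, 0.23 in WT liver). Chac1, a glutathione-degrading enzyme of the list, went the other way, with 1.04 in KD liver and -0.71 in WT liver. It was dim, at 4.19 in KD liver at 30 h and 3.15 at 0 h, against 2.89 in WT liver at 30 h and 3.60 at 0 h.

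Myc responded by 1.66 in KD liver and 0.13 in WT liver. In the 6 measured genes of the growth list, which includes Myc, the medians were 0.42 in KD liver and 0.56 in WT liver, with the nucleolar gene Nop58 at 0.80 and 1.38 and Odc1, of polyamine synthesis, at 0.74 and 1.44 in that order. Of 4 measured interferon genes set beside Wars, Isg15 was 1.24, Ifit1 0.94 and Gbp2 0.89 higher in KD than in WT liver at 0 h, where Wars was 0.44 higher and Irf1 differed by -0.07. Irf1 read 6.51 in KD liver and 6.58 in WT liver at 0 h, while the other 3 were dim, between 1.77 (Gbp2) and 2.56 (Isg15) in WT liver at 0 h. At 30 h all 4 were higher in KD liver (median 0.48) while Wars differed by -0.80. Of the brighter genes 37.8% were higher there, with a median of -0.11. Gbp2 (2.84 in KD liver, 2.74 in WT liver), Ifit1 (3.12 and 2.27) and Isg15 (3.48 and 2.97) were dim at 30 h too, under 3.83.

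In the difference of responses, most markers of Kupffer cells, the resident macrophages, were below 0, as were most synthetases and most brighter genes. All 8 were measured, the lowest value being 3.41 for Adgre1, under the 3.83 that marks the brighter genes. Their summed level, as log2, was 8.86 in KD liver at 30 h and 8.95 at 0 h, against 9.10 in WT liver at 30 h and 8.44 at 0 h. In the difference of responses 7 of 8 were at least 1.5-fold lower (87.5%, median -0.72). Of the brighter genes 22.5% were, as were 17% of all genes. The brighter genes were 63.2% below 0 there, with a median of -0.18. Summed sinusoidal endothelial markers (7 of 7 measured) were 7.77 in KD liver at 30 h and 8.45 at 0 h, against 7.79 in WT liver at 30 h and 8.20 at 0 h. Their median in the difference of responses was -0.85. There 4 of 7 were at least 1.5-fold lower (57.1%) and 1, Lyve1 (0.75), at least 1.5-fold higher. Summed hepatocyte markers (6 of 7) lay between 14.35 and 14.50 on the 4 arrays. Summed stellate markers (6 of 6) lay between 9.69 and 9.83, a sum led by Dcn (9.30 to 9.56), while 2 of the 6, Des (-1.50) and Rgs5 (-1.12), were at least 2-fold lower in the difference of responses. Summed cholangiocyte markers (4 of 5) lay between 5.74 and 6.04, neutrophil (5 of 5) between 5.30 and 5.73, and T and B cell (5 of 6) between 5.03 and 5.36. Median levels were 2.67 to 3.28 for neutrophil and 2.59 to 3.03 for T and B cell markers, under 3.83 on every array. Cholangiocyte Krt19 (2.45 to 2.73) and Epcam (3.06 to 3.61) were also under it. Close sums of such dim values do not show that these cells were steady. The part of any of these cell types in the synthetase differences was not tested.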

How the data were processed

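The authors deposited 1 log2 value per probe set and array, to 2 decimals. The submitters' processing notes name RMA and Affymetrix Expression Console. No version, parameter or genome build was found in the labels or file headers. RMA scales the arrays to similar distributions, which hides any change in total RNA. The deposited arrays were not fully alike, with array medians from 3.75 to 3.84. A further quantile normalization moved the median of the brighter genes by 0.15 in the difference of responses.

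Of 22206 probe sets, 19572 carried 1 symbol in the platform annotation and 2634 were unnamed and not used. A gene took its brightest probe set by the mean of the 4 arrays, giving 19505 genes. All 35 synthetases had 1 probe set and matched the reference annotation of GRCm38.p6 by Entrez ID, which served for names, neighbours and promoter sequences. Arrays were grouped by title. The descriptions speak of ethanol feeding, and that of the KD 30 h array gives 1 h after surgery, against 30 h in its title and time label. The genotype label of the knockdown arrays names a different gene from the protocol text, which is left unreported.

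The 5 comparisons were differences of log2 values between arrays. No difference was tested or has a replicate check, since each group is a single array, and precision is limited by the number of arrays. No detection call was used. Members were counted at 1.5-fold beside the same count over all genes and over the genes with a mean at or above 3.83. Members at least 1.5-fold different, up to 6 in each direction, were given in full, and of companion lists up to 3 genes with large differences. The members and lists were chosen with earlier results of these data known. Alternatives were brighter genes only, the mean of probe sets, median centring, quantile and cyclic loess normalization (limma 3.58.1, R 4.3.3) and leaving out Gars and Kars. Counting Tarsl2 as mitochondrial and centring on brighter genes were added after seeing the data. The counting step was tested on simulated data.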

Additional observations from a re-analysis of the deposited data

Results flagged for a closer look

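A gene is given here when its response to hepatectomy was at least 1.5-fold in opposite directions in KD and WT liver. The difference between the genotypes was not tested, since each group has 1 array. Rars2 differed by -1.48 (KD response minus WT response), Aimp1 by -1.84, Mtrf1l by -1.29 and Chac1 by 1.75. Of these, Rars2 is a synthetase and the others are companion genes. Chac1 was dim, above 3.83 only on the KD 30 h array (4.19). Aimp1 was under 3.83 on the KD 30 h (3.15) and WT 0 h (3.68) arrays, and Rars2 was just under it on both of these (3.82). Mtrf1l was above it on every array, with 3.91 on WT 0 h the lowest. Outlying samples could not be looked for with 1 array per group.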

How the results depend on the processing

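No paired analysis was possible because the groups compared share a single replicate number. A median was taken as moved when it differed by 0.1 or more, and a count when it differed by more than 1.5 times. The mean of probe sets could change nothing, since each synthetase has 1 probe set. Of 135 medians and counts recomputed under the other settings, 110 were neither moved nor reversed. The mitochondrial median of the WT response (-0.01) became 0.20 among brighter genes, 0.01 with median centring over all genes, 0.02 with cyclic loess, 0.04 with Tarsl2 counted as mitochondrial and -0.12 with centring on brighter genes. With that centring the mitochondrial median of KD minus WT at 30 h (-0.09) became 0.04. The mitochondrial median of the difference of responses (-0.29) became -0.54 among brighter genes, -0.50 with Tarsl2 and -0.11 with centring on brighter genes. The cytosolic median of KD minus WT at 30 h (-0.29) became -0.17 with quantile normalization, -0.15 with cyclic loess and -0.16 with centring on brighter genes. In the difference of responses the cytosolic median (-0.44) became -0.25, -0.21 and -0.26 in the same 3 settings, and the 5 cytosolic members at least 1.5-fold lower became 3, 2 and 1. The cytosolic median of the WT response (0.17) became 0.31 without Tarsl2 and 0.05 with centring on brighter genes. The 2 cytosolic members at least 1.5-fold lower in WT liver became 1, and the 1 higher in KD liver became 0, with median centring over all genes. The count in KD liver was 2 with quantile normalization, cyclic loess and centring on brighter genes. Of 40 single-gene calls at 1.5-fold over the 5 comparisons, 26 held in all 4 normalizations, and none changed sign. The cause of each change was not tested beyond the shift of the brighter genes itself, 0.15 in the difference of responses with quantile or loess normalization and 0.18 with centring on them. Leaving out Gars and Kars moved or reversed none of these values. Signal over background was not analysed here.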
